A study of Homo sapiens with 2 samples.

Results

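The genes examined were 9 that p53 switches on, namely *CDKN1A*, *MDM2*, *GADD45A*, *SESN1*, *TP53I3*, *ZMAT3*, *RRM2B*, *FAS* and *PHLDA3*. They were chosen by name, with no rule on their values, though earlier results of these data were known. All 9 were found by symbol among 57736 listed genes. RNA-Seq of poly(A)+ RNA was made from HEK293T, an established human embryonic kidney line labelled as wild type. Per the labels, the cells were heat-shocked at 43 °C for 20 min and then returned to 37 °C for 6 h. The study's text gives a longer time at 43 °C. There was 1 group of 2 libraries, replicate 1 and replicate 2, lysed separately, with 22529828 and 26890199 expected counts. Untreated cells are not analysed here. No effect of the heat shock can therefore be given, and p-values below compare these 2 libraries only, whose spread may be technical. All 9 genes were expressed, from 49.7 TPM for *MDM2* to 1.72 TPM for *FAS*.

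The transcription factor p53 is held low in unstressed cells by MDM2, a ubiquitin ligase that is itself a p53 target. DNA damage and other stresses free p53, which then activates genes for cell cycle arrest, repair, redox control and cell death. The T in HEK293T is the SV40 large T antigen, which binds p53 and interferes with its activity as a transcription factor, and the parent line HEK293 carries adenovirus genes that also act on p53. Viral transcripts were not measured, since 0 identifiers in the tables were other than human Ensembl genes.

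p53 binds a response element made of a pair of decamers. The consensus of 20 letters was searched within 5 kb of each annotated gene start in GRCh37, on both strands, with at most 2 mismatches, no spacer and the C and G of each central CNNG kept. Of the 9 genes, 6 had a match (66.7%), against 7.56% of 19391 protein-coding genes in windows of the same length. The matches are shown because p53 binds such elements. The 9 genes were chosen as p53 targets, so their higher share is not a test of that role. Each is written 5′ to 3′ on the strand of its gene, with the 4 central letters of both decamers in capitals.
ZMAT3, chr3:178787976-178787995, minus strand, 0 mismatches, 2017 bases downstream of the start, intronic: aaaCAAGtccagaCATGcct
GADD45A, chr1:68152458-68152477, plus strand, 1 mismatch, 1583 bases downstream, intronic: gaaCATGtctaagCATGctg
CDKN1A, chr6:36644226-36644245, plus strand, 2 mismatches, across the annotated start: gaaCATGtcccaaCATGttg
MDM2, chr12:69202703-69202722, plus strand, 2 mismatches, 755 bases downstream, intronic: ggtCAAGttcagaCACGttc
FAS, chr10:90751066-90751085, plus strand, 2 mismatches, 661 bases downstream, in an exon of an annotated transcript: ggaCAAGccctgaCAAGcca
The sixth match, in *RRM2B*, lay 2111 bases downstream with 1 mismatch in an intron. In *SESN1*, *TP53I3* and *PHLDA3* these letters were not in the window searched. Of 34 further p53 targets, 16 (47.1%) had a match. A match is a description of the sequence and not evidence of binding in these cells.

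**Figure D1:**
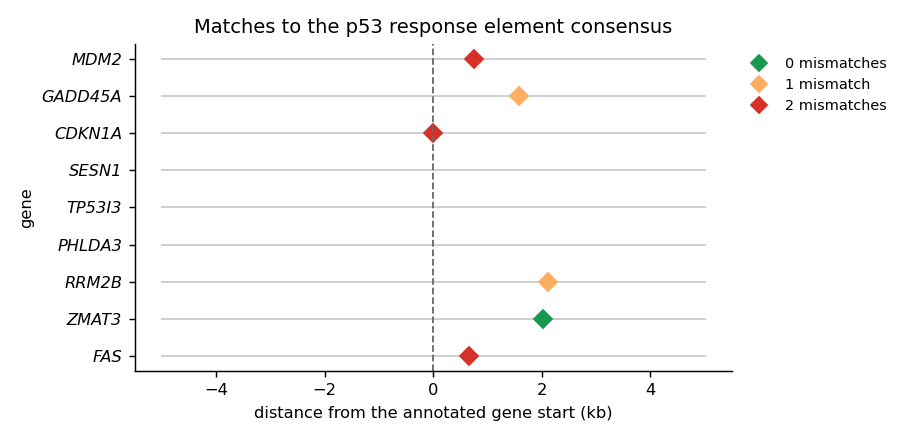
Position of matches to the p53 response element consensus (diamonds, coloured by mismatches) from 5 kb upstream to 5 kb downstream of the annotated start of each of the 9 genes, in kb. The matches of *MDM2*, *GADD45A*, *RRM2B*, *ZMAT3* and *FAS* lie downstream of the start, that of *CDKN1A* lies on it, and 3 genes have no match.

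Detection was set at 1 TPM or more in each library, which 9 of 9 genes reached and 63.8% of protein-coding genes did. At 5 TPM or more, 6 of the 9 remained. TPM gives transcript abundance as a share of the library, scaled to transcript length, and so can be compared between genes. By mean TPM the order was *MDM2*, *GADD45A*, *CDKN1A*, *SESN1*, *TP53I3*, *PHLDA3*, *RRM2B*, *ZMAT3* and *FAS*. The ranges of the 2 libraries overlapped between the neighbours *CDKN1A* and *SESN1*, *TP53I3* and *PHLDA3*, *PHLDA3* and *RRM2B*, and *RRM2B* and *ZMAT3*, so these did not differ beyond their spread. *MDM2* and *GADD45A* had means above the median of 18.6 TPM of detected protein-coding genes, and the other 7 had means below it. *MDM2* was above it in both libraries. *GADD45A* was below it in replicate 1, at 16.2 TPM, and above it in replicate 2, at 22.1 TPM. Summed over the 9 genes, the level was 105 TPM in replicate 1 and 138 TPM in replicate 2.

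**Figure D2:**
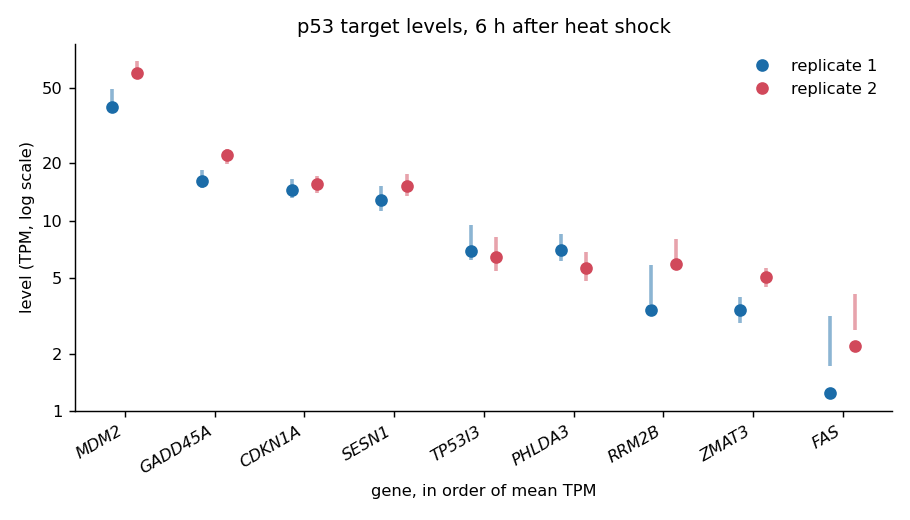
Level of each gene (TPM, log scale) in replicate 1 (blue) and replicate 2 (red), with points for the deposited TPM and bars for its 95% credibility interval. *MDM2* is highest in both libraries and *FAS* lowest, and the points of *RRM2B* and *FAS* lie under their bars.

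*MDM2* (ENSG00000135679; chromosome 12, 69201957 to 69239324 of GRCh37, plus strand) closes the feedback loop on p53. It was at 39.8 TPM in replicate 1 and 59.7 TPM in replicate 2, a mean of 49.7 ± 14.1 (SD, n = 2), and 76.8% of detected protein-coding genes were lower. The 95% credibility intervals of its TPM, from 38.1 to 49.5 and from 55.3 to 69.4, did not overlap. Its paralog *MDM4*, whose protein also binds and inhibits p53, was at 48.4 and 63.1 TPM. The *MDM4* to *MDM2* ratio was 1.22 in replicate 1 and 1.06 in replicate 2, so the pair were at like levels in each library. Of the 50-base sequences of *MDM2*, 12.5% were found in other genes, among them the opposite-strand lncRNA ENSG00000257181 with 75.4 and 194 expected counts.

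*CDKN1A* (ENSG00000124762; chromosome 6, 36644237 to 36655114, plus strand) encodes p21, the inhibitor of cyclin-dependent kinases through which p53 arrests the cell cycle. It was at 14.5 and 15.6 TPM, 15.1 ± 0.76 (SD, n = 2), the closest agreement on the log2 scale of TPM among the 9 genes. It was *MDM2*, not *CDKN1A*, that led the list, by 2.74-fold in replicate 1 and 3.83-fold in replicate 2. The paralog *CDKN1B*, for p27, was at 17.0 and 18.2 TPM, and *CDKN1C*, for p57, at 3.38 and 3.64 TPM. Among the genes for proteins that p21 binds, *CDK2* was at 126 and 133 TPM, 8.68-fold and 8.53-fold above *CDKN1A*, and *PCNA*, the clamp of DNA polymerases, was at 178 and 183 TPM. These 2 ratios to *CDKN1A* differed little between the libraries, with SDs of 0.02 and 0.04 on the log2 scale. Among other partners, *CDK4* was at 211 and 177 TPM, *CCND1* at 60.4 and 71.3 TPM and *CCNE1* at 35.5 and 33.2 TPM. The kinase gene *CDK1*, from the list of genes repressed through p53, was at 20.9 and 37.2 TPM. Its log2 ratio between the libraries was 0.73, and -0.19 with the GC trend described below taken out.

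*GADD45A* (ENSG00000116717; chromosome 1, 68150884 to 68154017, plus strand), a stress sensor that acts in growth arrest and repair, was at 16.2 and 22.1 TPM, 19.2 ± 4.16 (SD, n = 2). Its credibility intervals, from 14.8 to 18.4 and from 19.8 to 23.9, did not overlap. It was the highest of its family, with *GADD45B* at 7.79 and 8.20 TPM and *GADD45G* at 1.24 and 1.66 TPM.

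*RRM2B* (ENSG00000048392; chromosome 8, 103216730 to 103251189, minus strand) encodes p53R2, the small subunit of ribonucleotide reductase that supplies nucleotides for repair outside S phase. It was at 3.37 and 5.91 TPM, 4.64 ± 1.80 (SD, n = 2), lower in replicate 1. Its S phase counterpart *RRM2* was at 249 and 248 TPM, 73.8-fold and 42.0-fold higher than *RRM2B*, or 51.4-fold and 34.8-fold by posterior mean TPM. The large subunit *RRM1*, with which either small subunit acts, was at 162 and 176 TPM. In their transcripts, 0.05% of the 50-base sequences of *RRM2B* were shared with any other gene, so reads of the read length used can be told apart from those of *RRM2*.

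*SESN1* (ENSG00000080546; chromosome 6, 109305512 to 109416049, minus strand) encodes a sestrin, which restrains the growth kinase mTORC1 and supports antioxidant defence. It was at 12.8 and 15.3 TPM, 14.1 ± 1.74 (SD, n = 2). *SESN2*, which responds to amino acid and other stresses as well as to p53, was higher at 50.95 and 46.5 TPM, or 3.97-fold and 3.04-fold above *SESN1*. *SESN3* was at 4.87 and 10.8 TPM, and was lower than *SESN1* in both libraries. Its log2 ratio between the libraries was 1.01, and 0.60 with the GC trend described below taken out.

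*TP53I3* (ENSG00000115129; chromosome 2, 24300303 to 24308731, minus strand), a quinone oxidoreductase also called PIG3, was at 6.94 and 6.40 TPM, 6.67 ± 0.38 (SD, n = 2). The related enzyme *CRYZ* was at 6.76 and 11.3 TPM, so that the order of the pair changed between the libraries. The log2 ratio of *CRYZ* between the libraries was 0.62, and 0.04 with the GC trend described below taken out. *TP53I3* lies over its whole annotated length of 8429 bases inside *FAM228B* on the opposite strand, which had 83.2 and 173 expected counts beside 157 and 156 for *TP53I3*. Only 1.54% of the 50-base sequences of *TP53I3* transcripts were found in those of *FAM228B*. The sources used here do not state whether strand was used in counting, so reads of the pair cannot be told apart where their exons overlap.

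*ZMAT3* (ENSG00000172667; chromosome 3, 178677909 to 178790003, minus strand), an RNA-binding zinc finger protein that regulates splicing and RNA stability downstream of p53, was at 3.39 and 5.03 TPM, 4.21 ± 1.16 (SD, n = 2). Its credibility intervals, from 2.90 to 3.96 and from 4.46 to 5.66, did not overlap. Among the other genes of that name, *ZMAT2* was at 29.2 and 31.4 TPM and *ZMAT5* at 24.3 and 19.4 TPM. *ZMAT1* was at 0.15 and 0.34 TPM, and *ZMAT4* had 0 counts in both libraries. A count of 0 allows up to 3 counts, or 0.133 CPM in replicate 1 and 0.1116 in replicate 2, and this covers counting error only.

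*FAS* (ENSG00000026103; chromosome 10, 90750414 to 90775542, plus strand), the death receptor CD95, was the lowest of the 9 genes, at 1.24 and 2.20 TPM, 1.72 ± 0.68 (SD, n = 2). It rested on 55.0 and 112 expected counts, and 3.64% of detected protein-coding genes were lower. Of the 50-base sequences of its transcripts, 20.9% were also found in other genes of the annotation used here, the highest share of the 9 genes. These were ENSG00000286116 and *ACTA2* on the opposite strand. ENSG00000286116, which alone shares the 20.9%, was not among the genes counted, so that share does not describe these counts. *ACTA2*, which shares 8.41% of all *FAS* sequences, had 209 and 199 expected counts. *FASLG*, its ligand, had 0 counts in both libraries. The intracellular parts of the pathway were higher than the receptor. The adaptor *FADD* was at 17.2 and 16.2 TPM, the initiator caspase *CASP8* at 11.6 and 15.02 TPM, and *CFLAR*, which blocks that caspase, at 7.28 and 9.51 TPM. Another death receptor target of p53, *TNFRSF10B* (DR5), was at 15.04 and 16.2 TPM, 12.1-fold and 7.34-fold above *FAS*, or 6.61-fold and 5.11-fold by posterior mean TPM, while *TNFRSF10A* (DR4) had 0 counts in both libraries.

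*PHLDA3* (ENSG00000174307; chromosome 1, 201433406 to 201438365, minus strand), which competes with the kinase AKT for membrane lipids, was at 6.97 and 5.61 TPM, 6.29 ± 0.96 (SD, n = 2), higher in replicate 1. Its paralog *PHLDA2* was at 27.0 and 24.0 TPM and *PHLDA1* at 0.79 and 0.87 TPM. An annotated lncRNA on the same strand, ENSG00000224818, shares 15.5% of the 50-base sequences of *PHLDA3* but had only 2 and 3 expected counts.

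**Figure D3:**
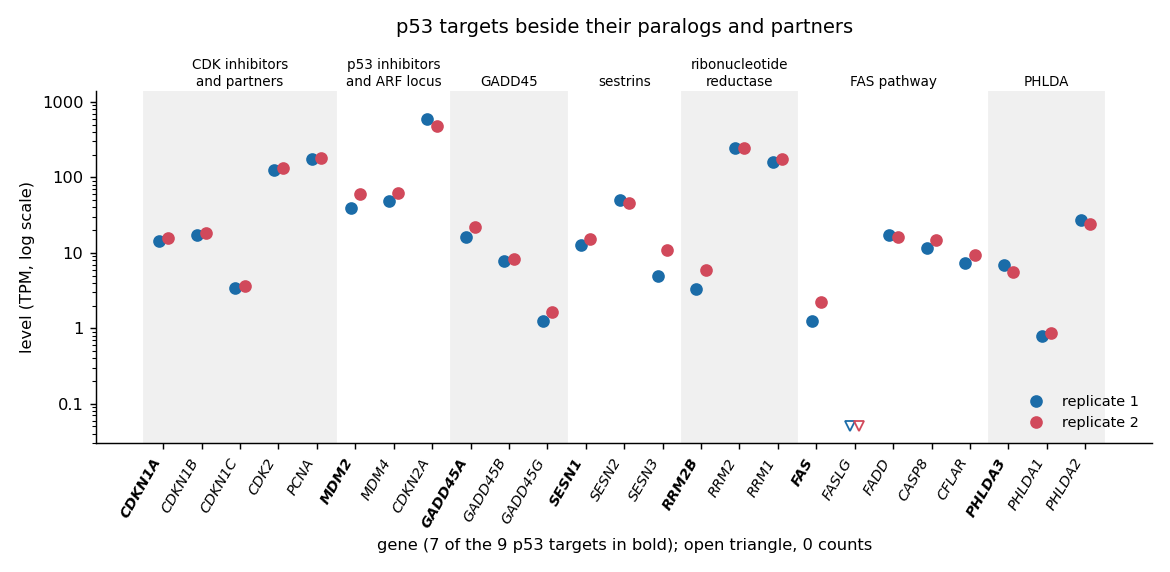
Level (TPM, log scale) of 7 of the 9 p53 targets (bold) beside paralogs and partners in replicate 1 (blue) and replicate 2 (red), grouped by family or pathway. *RRM2* and *RRM1* stand over 100 TPM while *RRM2B* stays under 10, and *FASLG*, drawn as open triangles, had 0 counts.

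The list of p53 relatives and regulators had a median of 43.9 TPM, beside 6.67 TPM over the 9 targets. The p53 relative *TP73* was at 10.5 and 8.90 TPM, and *TP63*, with 3 and 1 expected counts, was at 0.08 and 0.04 TPM. Of 20 p53 family members and regulators, 19 were detected. The highest were *RPL11* at 2639 ± 167 TPM and *RPL5* at 1391 ± 39.0 TPM, ribosomal proteins that bind MDM2 when ribosome assembly fails, and *CDKN2A* at 537 ± 85.6 TPM (SD, n = 2). *CDKN2A* encodes both ARF, the antagonist of MDM2, and the kinase inhibitor p16, and its level by gene does not separate them. It was 15.01-fold and 7.98-fold above *MDM2*. *ATM*, the kinase that signals DNA breaks to p53, had the highest log2 ratio between the libraries among the detected genes of this list, at 20.3 and 46.7 TPM with a log2 ratio of 1.00. Once the GC trend described below was taken out, this ratio was 0.48.

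Further direct p53 targets, 34 genes of apoptosis, repair, metabolism and cell cycle control, gave the context of the 9 genes. Of these, 27 were detected, and the median over all 34 was 10.2 TPM, beside 6.67 TPM over the 9 genes. Detected genes of all types had a median of 14.3 TPM and detected protein-coding genes one of 18.6 TPM. These 2 medians leave out undetected genes, which the median over the 34 includes. The highest were the cyclin *CCNG1* at 142 ± 6.92 TPM, *EI24* at 116 ± 0.96 TPM, the pore-forming apoptosis gene *BAX* at 69.5 ± 6.35 TPM and *SESN2* (SD, n = 2). Among repair genes of the list, *XPC* was at 38.7 and 42.4 TPM, *DDB2* at 10.7 and 9.78 TPM and *POLH* at 9.12 and 9.87 TPM. Among those under 1 TPM in at least 1 library were *TNFRSF10A*, *TP53AIP1*, *GDF15*, *SFN*, *EDA2R* and *TRIM22*. *TP53AIP1*, a mitochondrial apoptosis gene, had 0 counts in both libraries. The secreted stress factor *GDF15* had 2 and 2.

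Genes that p53 represses through p21 and the DREAM complex, which silences cell cycle genes, were high. All 12 were detected, with a median of 104 TPM. *PLK1* was at 260.5 ± 23.9 TPM, *AURKB* at 189 ± 0.60 TPM, *FOXM1* at 126 ± 0.58 TPM and *MKI67* at 124 ± 23.4 TPM (SD, n = 2). The lowest of the list by mean was *CDC25C*, at 21.4 and 18.3 TPM, and *CDKN1A* was below it in both libraries. How much of any of these levels is due to p53 or to T antigen was not tested.

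**Figure D4:**
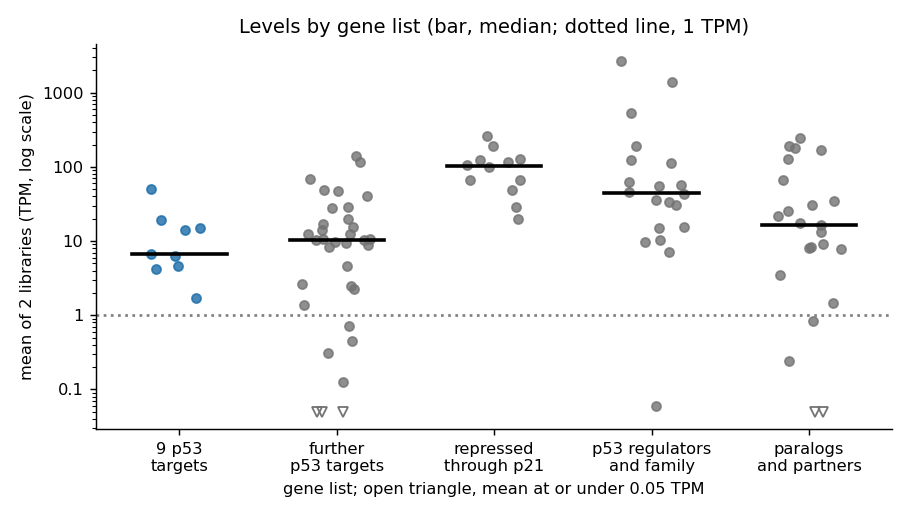
Mean level over the 2 libraries (TPM, log scale) of each gene in 5 lists, with a bar at the median and a dotted line at 1 TPM. The 9 p53 targets and the 34 further targets have medians of 6.67 and 10.2 TPM, and the 12 genes repressed through p21 have a median of 104 TPM.

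The spread between the replicates was read from counts. Shares of the 2 libraries were compared by an exact binomial test (two-sided), with p-values adjusted by Benjamini-Hochberg over all 19714 genes tested, of which 42.5% differed. Of the 9 genes 5 differed, 4 of them higher in replicate 2 (20.6% of all genes) and 1 higher in replicate 1 (21.9%). *RRM2B*, with 291 and 581 expected counts, had a log2 ratio of replicate 2 over replicate 1 of 0.69 (95% counting interval 0.49 to 0.90; adjusted p = 7.38e-11, exact binomial). *MDM2*, with 1174 and 2045 counts, had one of 0.50 (0.39 to 0.60; adjusted p = 2.46e-20, exact binomial). *ZMAT3*, with 278 and 506 counts, had one of 0.56 (adjusted p = 8.18e-07, exact binomial), and *FAS* had one of 0.72 with a wide interval of 0.24 to 1.22 (adjusted p = 0.00719, exact binomial). *PHLDA3*, with 177 and 151 counts, went the other way, at -0.53 (adjusted p = 0.00322, exact binomial). *GADD45A*, *CDKN1A*, *SESN1* and *TP53I3*, at 0.20, -0.03, -0.05 and -0.31, did not pass the threshold of 0.05. An edgeR exact test that allowed an assumed biological coefficient of variation of 0.1 passed only *RRM2B*, at an adjusted p of 0.038, and 7.24% of all genes. The coefficient of variation estimated from these 2 libraries themselves was 0.2005, above the assumed value, so this call rests on less spread than the libraries showed. The test on counts alone takes no spread between cultures into account.

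These ratios moved with the GC content of the transcripts. Across all genes the ratio fell as GC content rose, and the 4 genes that were higher in replicate 2 had 39.7% to 43.2% GC while *PHLDA3* had 60.9%. With the GC trend removed, the log2 ratio of *MDM2* was 0.08, that of *RRM2B* 0.22, that of *FAS* 0.57 and that of *PHLDA3* -0.28, and none of these passed the exact binomial test (adjusted p = 0.27, 0.119, 0.0637 and 0.224). *ZMAT3* still passed, at 0.41 (adjusted p = 0.000841, exact binomial). *GADD45A* then passed at 0.42 (adjusted p = 3.26e-05, exact binomial). *SESN1*, at 40.3% GC, passed at -0.47 (adjusted p = 1.09e-05, exact binomial), lower in replicate 2 than genes of its GC content. That made 3 of 9 genes, where 26.4% of all genes passed, and 2 of the 3 were higher in replicate 2 (13.2% of all genes).

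**Figure D5:**
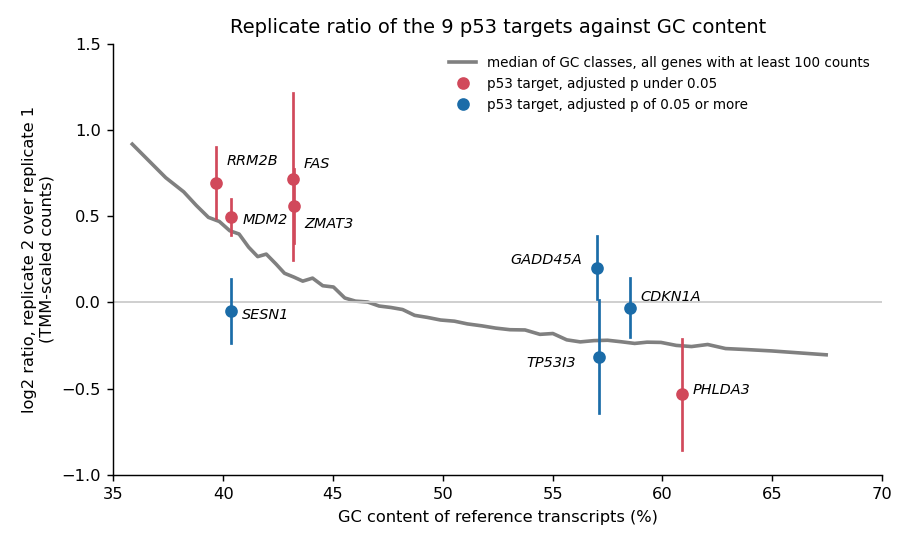
Log2 ratio of replicate 2 over replicate 1 (TMM-scaled counts) of the 9 p53 targets against GC content (%), with 95% counting intervals as bars, red where the adjusted p is under 0.05 and blue otherwise. The grey line is the median of GC classes of all genes with at least 100 counts, and *SESN1* lies below it while *GADD45A* lies above.

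The tables also hold the quantifier's own measures of certainty. The credibility intervals of TPM did not overlap between the libraries for 4 of the 9 genes, *MDM2*, *GADD45A*, *RRM2B* and *ZMAT3*, where 27.5% of detected genes had such a gap. For *RRM2B* and *FAS* the deposited TPM lay below its own interval in both libraries. Over all detected genes, 6.33% had a TPM outside their interval, above or below it, in at least 1 library. *FAS* at 1.24 TPM had an interval of 1.71 to 3.16 in replicate 1, and at 2.20 TPM one of 2.65 to 4.13 in replicate 2. *RRM2B* at 3.37 TPM had an interval of 3.65 to 5.87, and at 5.91 TPM one of 5.96 to 8.04. Posterior means of TPM were correspondingly higher, 2.42 and 3.37 for *FAS* and 4.71 and 6.96 for *RRM2B*, so the levels of this pair depend on which estimate is read. The uncertainty from sharing reads was small, with a posterior SD of at most 3.93% of the count for any of the 9 genes and of 0 in both libraries for 5 of them.

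Each gene's length in the tables is averaged over its transcripts by their estimated share, so a shift in it is a shift in the transcripts called. *SESN1* had the largest, from 1900 bases in replicate 1 to 1674 in replicate 2, a log2 ratio of -0.18. Its TPM ratio was 0.25 on the log2 scale and its ratio of TMM-scaled counts -0.05, a gap of which the length shift is only a part. The scalings of TPM and of counts differ as well, since *RRM2B*, whose length hardly moved, had 0.81 by TPM and 0.69 by counts. *GADD45A* went from 1486 to 1366 bases, and *ZMAT3* from 4546 to 4895. *RRM2B*, *FAS* and *CDKN1A* moved by under 0.02 on that scale.

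The cell type was checked with markers. Of the neuronal markers, *UCHL1* was at 397 and 367 TPM and *NEFM* at 45.1 and 56.5 TPM, but *STMN2* was at 0.03 and 0.06 TPM. The mesenchymal *VIM* was at 684 and 611 TPM, while *PTPRC* and *CD3E* of leukocytes had 0 counts and *COL1A2* of fibroblasts and *VWF* and *CDH5* of endothelium had at most 1.2 expected counts in either library. Among markers of other types that passed 1 TPM were *COL1A1* at 24.1 and 20.9 TPM and *HBA1* at 9.24 and 7.61 TPM, and their part in the results was not tested.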

How the data were processed

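Per the labels, poly(A)+ RNA of HEK293T cells was sequenced with 50 bp reads. The submitters' processing notes name Trimmomatic 0.36, STAR 2.6.1c and RSEM 1.3.1 with hg19/GRCh37.p13. The study's methods name featureCounts instead, but the columns are those of RSEM. The authors deposited, per gene, expected counts with their posterior SD, TPM, FPKM and credibility bounds. The strand setting is not stated there. The pooled table of the authors lay within 1 read of the summed expected counts for all 9 genes.

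Here, symbols and positions came from GENCODE for GRCh37 (96.1% of identifiers matched). Expected counts were rounded, scaled by edgeR 4.0.16 TMM factors and compared by an exact two-sided binomial test in genes whose counts summed to 10 or more, with Benjamini-Hochberg adjustment. Log2 ratios used a pseudocount of 0.5. Intervals are exact Clopper-Pearson at 95%. GC trends were medians of 50 classes. The test was checked on simulated counts that held counting error only. That check does not cover a GC trend or a spread between cultures. Mean ± SD is over 2 libraries. With 1 group, no quasi-likelihood test was possible.

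The genes, lists and tests were chosen with earlier results of these data known. Genes named from the other lists were the 4 of highest mean TPM, those under 1 TPM, paralogs and partners of the 9 genes, and those past the threshold with a log2 ratio of at least 1. *XPC*, *DDB2*, *POLH*, *CDC25C*, *CDK1*, *TP73*, *TNFRSF10B* and the markers were named outside this rule, after their values were known. NEFL and PECAM1 were not matched. Some genes of the lists are not reported here. Alternatives covered thresholds, scaling, count minimums, posterior means, GC, units and leaving out a replicate. Plots used matplotlib 3.10.9.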

Additional observations from a re-analysis of the deposited data

How the results depend on the processing

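No paired analysis was possible because there is only 1 group here. The number of the 9 genes detected was 9 at a TPM of 0.1, by FPKM, by posterior mean and without either replicate, and 6 at a TPM of 5. With the GC content trend removed, 5026 of 19048 genes tested (26.4%) differed between the libraries. So did 3 of the 9 genes and 5 of the 30 further targets tested. With the trend left in, the counts were 8372 of 19714 (42.5%), 5 and 11. With the edgeR exact test and its assumed variation these counts were 1427 (7.24% of all genes tested), 1 and 1, since that test allows a spread beyond counting error. The log2 ratio of *CDKN1A* changed sign to 0.0169 with library totals, 0.20 with the GC trend removed and 0.10 as a ratio of TPM, and that of *SESN1* to 0.25 as a ratio of TPM. *GADD45A* passed the threshold with library totals too (adjusted p = 0.0177, exact binomial). Ranked by CPM, which is not scaled to length, *CDKN1A* and *GADD45A* changed places, *TP53I3* fell to place 8 and *ZMAT3* rose to 6. Depth limits *FAS* most.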
